A study of Mus musculus with 12 samples.

Results

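The regenerating (Reg) genes encode small secreted proteins with a C-type lectin fold. The 7 mouse members described here, Reg1, Reg2, Reg3a, Reg3b, Reg3d, Reg3g and Reg4, were chosen by their symbols among the 24421 genes of the deposited count table. All 7 passed the filter on low counts that left 17411 genes for testing, Reg4 through the groups in which it was high. Prss2, which encodes a trypsinogen that pancreatic acinar cells secrete, served as the reference for digestive-enzyme transcripts. RNA was sequenced from pancreatic islets of Langerhans that the labels describe as mostly beta cells. Control mice carried floxed Bmal1 alleles (Bmal1fl/fl), and knockout mice carried in addition a Cre transgene (Bmal1fl/flRIPCreERT/+), whose rat insulin promoter drives a tamoxifen-dependent Cre in beta cells. Bmal1 (Arntl) encodes a core activator of the circadian clock. Each genotype was sampled 24 h after citrate buffer (vehicle), 24 h after streptozotocin (STZ) and 4 wk after STZ, and each of these 6 groups has 2 libraries, lettered A and B. STZ is a toxin that enters beta cells, and the design text gives its dose as submaximal. No group carried the Cre without the floxed alleles, and the acinar, ductal and immune cells of either genotype are not targets of the insulin promoter. The vehicle libraries are all from 24 h, so a comparison of 4 wk with vehicle mixes treatment with time. Whether A and B are different animals is not stated in the labels, so the p-values reflect the variation between 2 libraries of a group, which could be technical.

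Reg1 was first cloned from regenerating islets of rats after part of the pancreas had been removed, and its protein, lithostathine, is a major product of acinar cells. Reg3 proteins are also known as pancreatitis-associated proteins. Acinar cells raise them in pancreatitis, and gut epithelial cells raise Reg3b and Reg3g in response to bacteria through interleukin 22, interleukin 6-type cytokines and the transcription factor STAT3, and secrete them as antibacterial lectins. Reg3d is the mouse relative of the islet neogenesis-associated protein described in hamster, and Reg4 is known from enteroendocrine and other secretory cells of the gut.

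Reg1, Reg2 and the 4 Reg3 genes lie within 98.0 kb of chromosome 6, from 78370885 to 78468874 in mm10, in the order Reg3b, Reg3d, Reg3a, Reg2, Reg1 and Reg3g. Reg3d and Reg3g lie on the minus strand and the others on the plus strand, each with 6 annotated exons. Reg4 lies apart, on chromosome 3 from 98222156 to 98236748. The 140 bases upstream of the annotated start of each chromosome 6 member are shown here. They were read from RefSeq on GRCm38.p6, the assembly that mm10 names, 5′ to 3′ on the gene's own strand. Capitals mark the matches, within these bases, to 3 motifs: TATAAA (the TATA box), TTCNNNGAA (the letters STAT factors prefer) and TGCCAA, the last chosen after the sequences had been seen.
Reg3b: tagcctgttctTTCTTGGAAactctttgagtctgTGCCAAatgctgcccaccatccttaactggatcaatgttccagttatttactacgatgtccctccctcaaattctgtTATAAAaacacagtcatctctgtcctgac
Reg3d: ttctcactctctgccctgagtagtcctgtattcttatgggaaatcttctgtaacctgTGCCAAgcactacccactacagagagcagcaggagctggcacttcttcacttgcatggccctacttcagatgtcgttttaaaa
Reg3a: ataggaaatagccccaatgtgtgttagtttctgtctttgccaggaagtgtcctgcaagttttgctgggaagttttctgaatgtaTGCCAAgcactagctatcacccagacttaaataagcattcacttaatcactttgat
Reg2: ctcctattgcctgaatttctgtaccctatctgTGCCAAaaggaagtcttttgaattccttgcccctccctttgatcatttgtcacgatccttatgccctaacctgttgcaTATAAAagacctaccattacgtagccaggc
Reg1: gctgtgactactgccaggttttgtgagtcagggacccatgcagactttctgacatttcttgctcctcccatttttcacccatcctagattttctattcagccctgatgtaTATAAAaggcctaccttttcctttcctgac
Reg3g: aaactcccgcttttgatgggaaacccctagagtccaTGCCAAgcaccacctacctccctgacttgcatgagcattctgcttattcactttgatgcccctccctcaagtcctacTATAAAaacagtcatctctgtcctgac
The windows are chr6:78425843-78425982 for Reg1, chr6:78405015-78405154 for Reg2, chr6:78380569-78380708 for Reg3a, chr6:78370745-78370884 for Reg3b, chr6:78378866-78379005 for Reg3d and chr6:78468875-78469014 for Reg3g. Each motif was searched on both strands from 250 bases before to 50 bases after the start, in these genes and in all 32851 RefSeq promoter windows of the same length. TATAAA stood upstream at positions -30 to -25 in Reg1 and Reg2, -29 to -24 in Reg3b and -27 to -22 in Reg3g, and 13.6% of all windows held it. Reg3a and Reg3d had no match to it. TTCNNNGAA was found in Reg3b at -129 to -121 and in Reg3d at -238 to -230, and in 8.3% of all windows. Prss2 held both of these motifs as well, TTCNNNGAA at -221 to -213 and TATAAA at -16 to -11. TGCCAA was found in each of the 6 genes, in 14.1% of all windows, and in neither Reg4 nor Prss2. CACGTG, the E-box that CLOCK and BMAL1 bind, was in none of the 8 windows and in 7.15% of all. A match or its lack describes these letters in this window only. The sequences of the Reg transcripts differ enough to be counted apart: no stretch of 75 bases was shared with another annotated gene, and the closest pair, Reg3b and Reg3g, had an identity of 70.5%.

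Total counts ran from 101772241 to 127207523 per library, of which the 7 members took 0.455 to 2.65%. Exon 8 of Arntl checked the genotype labels: its coverage relative to the transcript was 1.56 to 1.99 in control libraries and 0.627 to 1.37 in knockout libraries. Over the whole gene, Arntl was not lower in each knockout group: it was at 17.8 and 19.9 CPM in knockout vehicle against 8.79 and 8.36 CPM in control vehicle libraries. Esr1, the estrogen receptor gene whose hormone-binding part the CreERT transgene carries, was at 51.1 to 359 CPM in knockout and 0.706 to 2.29 CPM in control libraries. Beta-cell markers were present in every library, with a summed level of 22764 to 146134 CPM (counts divided by a library size that the trimmed mean of M-values, TMM, corrects), lowest in knockout at 24 h after STZ. Acinar enzyme transcripts were present as well: 20 enzyme genes took 11 to 11.1% of counts in knockout vehicle, 32.9 to 33.6% in control vehicle and 34.7 to 35.3% in knockout STZ 24 h libraries. In such bulk samples, fewer cells of a type and less RNA per cell cannot be told apart.

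All 6 chromosome 6 members had their highest mean in control vehicle islets and fell by 24 h after STZ there, and in knockout islets they were low under vehicle and rose by 24 h after STZ. From 24 h to 4 wk Reg2, Reg3a, Reg3b and Reg3g fell in both genotypes, and Reg1 and Reg3d in knockout. Reg3a, Reg3b and Reg3g were 5.72- to 13.3-fold higher in knockout than in control islets at 4 wk after STZ. Reg4 was listed at 0 in both vehicle groups and appeared mainly in knockout islets at 4 wk.

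**Figure D1:**
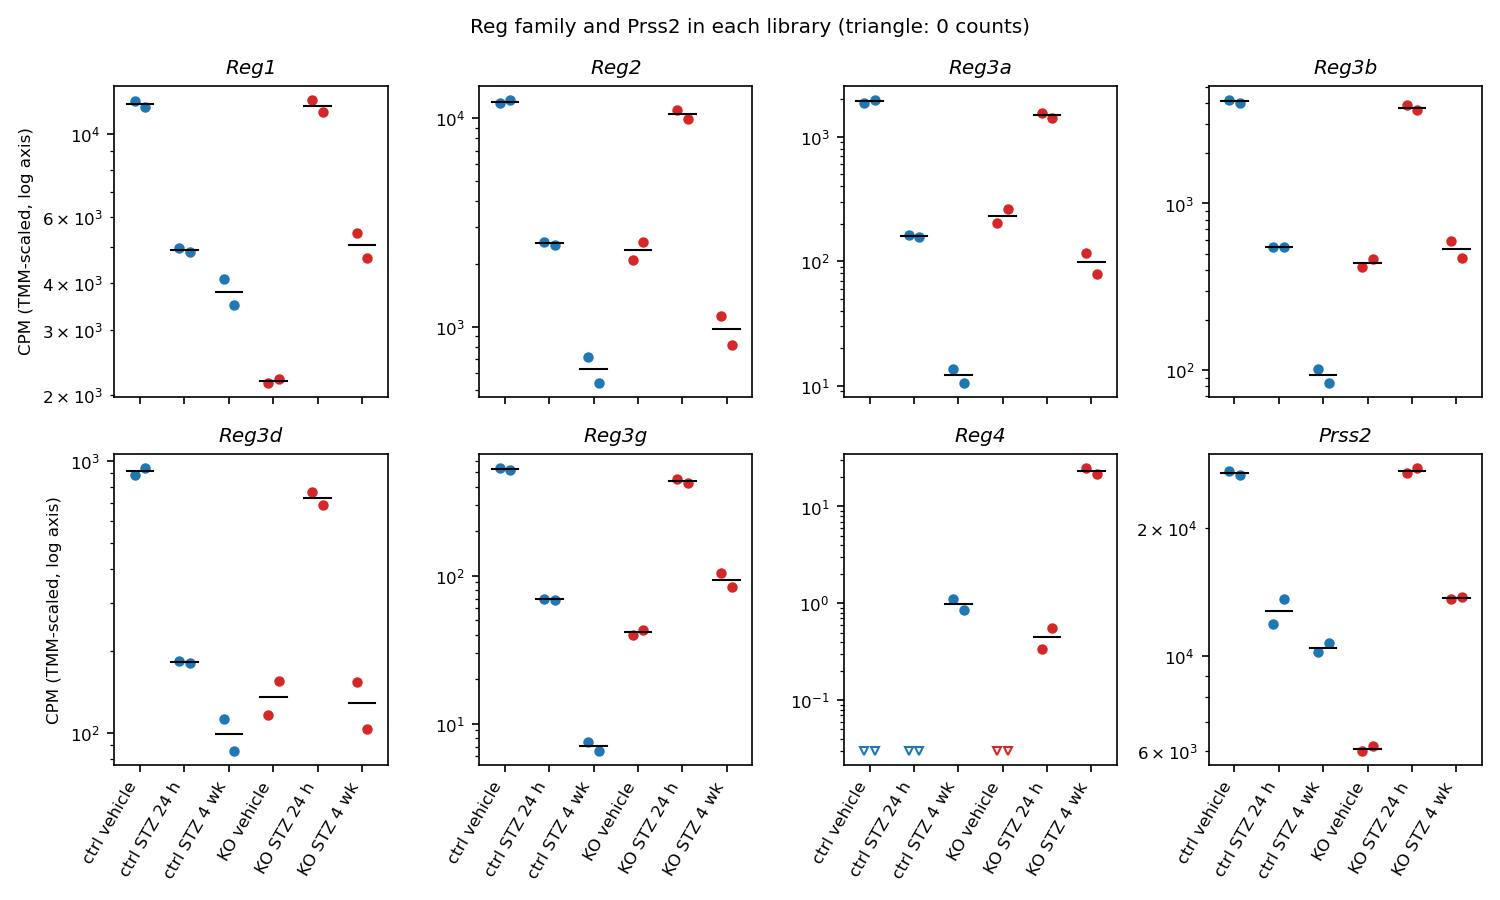
Level in CPM on a log axis of each Reg member and of Prss2 in the 12 libraries, with libraries A and B as separate points in each of the 6 groups, and lines at the group means; triangles mark 0 counts. The 6 chromosome 6 members are high in control vehicle and knockout STZ 24 h libraries, and Reg4 reaches 21.6 to 24.8 CPM in the knockout STZ 4 wk libraries.

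Reg1 was at 12293 and 11822 CPM in control vehicle libraries A and B, at 4959 and 4825 CPM at 24 h after STZ, and at 4092 and 3490 CPM at 4 wk. In knockout libraries it was at 2160 and 2214 CPM under vehicle, 12341 and 11491 CPM at 24 h after STZ, and 5433 and 4656 CPM at 4 wk. The range of the knockout STZ 24 h libraries overlapped that of control vehicle, that of knockout STZ 4 wk overlapped control STZ 24 h, and knockout vehicle was lowest. Prss2 followed nearly the same course: 27308 and 26710 CPM in control vehicle, 11904 and 13657 CPM at 24 h and 10207 and 10720 CPM at 4 wk after STZ. Its knockout values were 5988 and 6145 CPM under vehicle, 26908 and 27649 CPM at 24 h and 13594 and 13746 CPM at 4 wk. Across the group means, Reg1 spanned 5.51-fold and Prss2 4.50-fold.

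Reg2, the closest relative of Reg1 here with a transcript identity of 63.7%, started at the same height in control vehicle, at 11774 and 12207 CPM, and fell further. It was at 2562 and 2468 CPM at 24 h and at 713 and 539 CPM at 4 wk after STZ in control libraries. In knockout libraries Reg2 was at 2092 and 2562 CPM under vehicle, 10952 and 9924 CPM at 24 h and 1125 and 820 CPM at 4 wk. Its group means spanned 19.2-fold, with control STZ 4 wk lowest and only the ranges of control STZ 24 h and knockout vehicle overlapping.

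Reg3b, the most abundant Reg3 gene in 5 of 6 groups by TPM, which adjusts for transcript length, was at 4177 and 4028 CPM in control vehicle. At 24 h after STZ control libraries held 548 and 546 CPM, and at 4 wk 102 and 83.7 CPM. Knockout libraries held 417 and 464 CPM of Reg3b under vehicle, 3908 and 3634 CPM at 24 h and 592 and 469 CPM at 4 wk. The knockout STZ 4 wk range contained that of control STZ 24 h, and no other groups overlapped. Reg3b encodes a lectin that kills Gram-negative bacteria in the gut.

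Reg3a had the widest span of the chromosome 6 members, 159-fold between group means, with no overlap between any groups. Its control libraries held 1877 and 1970 CPM under vehicle, 161 and 156 CPM at 24 h, and 13.7 and 10.5 CPM at 4 wk after STZ. The knockout libraries held 201 and 261 CPM of Reg3a under vehicle, 1539 and 1429 CPM at 24 h, and 117 and 78.8 CPM at 4 wk.

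Reg3g, whose protein binds the peptidoglycan of Gram-positive bacteria, spanned 75-fold, also without overlap between groups. In control it was at 532 and 521 CPM under vehicle, 69.6 and 68.5 CPM at 24 h, and 7.52 and 6.53 CPM at 4 wk. In knockout Reg3g was at 39.6 and 42.9 CPM under vehicle, 453 and 423 CPM at 24 h, and 104 and 83.5 CPM at 4 wk. Knockout vehicle was thus below knockout STZ 4 wk for Reg3g, whereas for Reg2 and Reg3a it was above.

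Reg3d spanned 9.23-fold and had the least distinct groups. Control libraries held 889 and 939 CPM under vehicle, 184 and 181 CPM at 24 h, and 113 and 85.6 CPM at 4 wk. Knockout libraries held 116 and 155 CPM of Reg3d under vehicle, 765 and 690 CPM at 24 h, and 154 and 103 CPM at 4 wk. The ranges of knockout vehicle and of both 4 wk groups overlapped in turn. Reg3d is annotated with 2 transcripts, of which the minor one made up 1.68 to 3.07% of its TPM.

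Reg4 was listed at 0 in both vehicle groups and in control libraries at 24 h after STZ. Knockout libraries had 33 and 59 counts of it at 24 h (0.339 and 0.564 CPM) and 2704 and 2759 counts at 4 wk (24.8 and 21.6 CPM), and control libraries 136 and 117 counts at 4 wk (1.12 and 0.852 CPM). The 3 groups with counts did not overlap.

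Under vehicle, knockout islets held 5.15- to 12.8-fold less of each chromosome 6 member than control islets. The 6 members fell, with log2 fold changes from -3.67 to -2.37, and 7.68% of all tested genes fell while 1.96% rose (9.64% passed, with a median gene of 0). The adjusted p was 9.81e-07 for Reg3g, at -3.67 (SE 0.14), and at most 0.000101 for the others (edgeR's quasi-likelihood test with Benjamini-Hochberg adjustment over all genes). Reg1 and Reg2 differed least, at -2.46 (SE 0.12) and -2.37 (SE 0.20), and Prss2 was at -2.15 (SE 0.10, adjusted p = 3.89e-06). Of the 20 acinar enzymes 18 fell, with single genes between -2.32 and -1.69. The point values of all 6 chromosome 6 members lay below this range, those of Reg1 and Reg2 close to its edge given their SE. The stomach markers were lower beside them, at 5.79 to 6.71 CPM in sum against 230 to 251 in control, and so were liver markers, at 35.1 to 38.6 against 197 to 210 CPM; their part in the result was not tested.

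At 24 h after STZ the order of the genotypes was the opposite, with knockout islets 2.44- to 9.36-fold above control islets for the chromosome 6 members. All 6 chromosome 6 members rose, against 23.7% of all genes, with 19.4% falling (43.0% passed). The log2 fold changes of these 6 ran from 1.28 to 3.23. Among the chromosome 6 members Reg3a was highest at 3.23 (SE 0.23, adjusted p = 1.14e-05), followed by Reg3b at 2.79 and Reg3g at 2.66, and Reg1 was lowest at 1.28 (SE 0.12, adjusted p = 4.75e-05). Reg4 was at least 36.0-fold higher, counting 3 counts over the control group as the floor. It is not in the count above because it passed the low-count filter through the groups in which it was high. Prss2, itself among the 20 acinar enzymes, was at 1.09. The range of these enzymes, 0.66 to 1.36, also held Reg1, while the other 6 members lay above it. Pan-endocrine transcripts were at 5035 to 5049 CPM in knockout and 18631 to 18697 in control, macrophage markers at 1597 to 1625 against 193 to 198, and lymphocyte markers at 293.7 to 293.8 against 3.47 to 4.16 CPM; what they contribute to the difference was not tested.

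At 4 wk after STZ the members separated. Reg3g was 13.3-fold, Reg3a 8.07-fold and Reg3b 5.72-fold higher in knockout, with log2 fold changes of 3.74 (SE 0.14), 3.01 (SE 0.22) and 2.52 (SE 0.15) and edgeR adjusted p of 6.85e-07, 2.15e-05 and 6.20e-06. Reg4 was 23.5-fold higher, at 4.56 (SE 0.32). Reg1 and Reg2 passed at 0.41 (SE 0.12, adjusted p = 0.0295) and 0.64 (SE 0.19, adjusted p = 0.0342), and Reg3d was at 0.38 (SE 0.22, adjusted p = 0.245). Every chromosome 6 member but Reg3d was thus higher past the threshold, against 19.9% of all genes, with 7.89% lower (27.8% passed). Reg4 is left out of that count because it passed the filter through the groups in which it was high. The calls of Reg1 and Reg2 ended when any of 8 of the 12 libraries was left out, with adjusted p up to 0.156 and 0.175, and Reg3d passed at 0.64 without knockout STZ 4 wk library B (adjusted p = 0.0491) and at 1.15 under pan-endocrine scaling (adjusted p = 0.0125). Prss2 was at 0.39 (adjusted p = 0.0193, and 0.0971 or 0.0501 without control STZ 4 wk library A or B) and the enzymes ran from 0.04 to 0.64, a range that held Reg1, Reg2 and Reg3d but not the other 4 members.

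**Figure D2:**
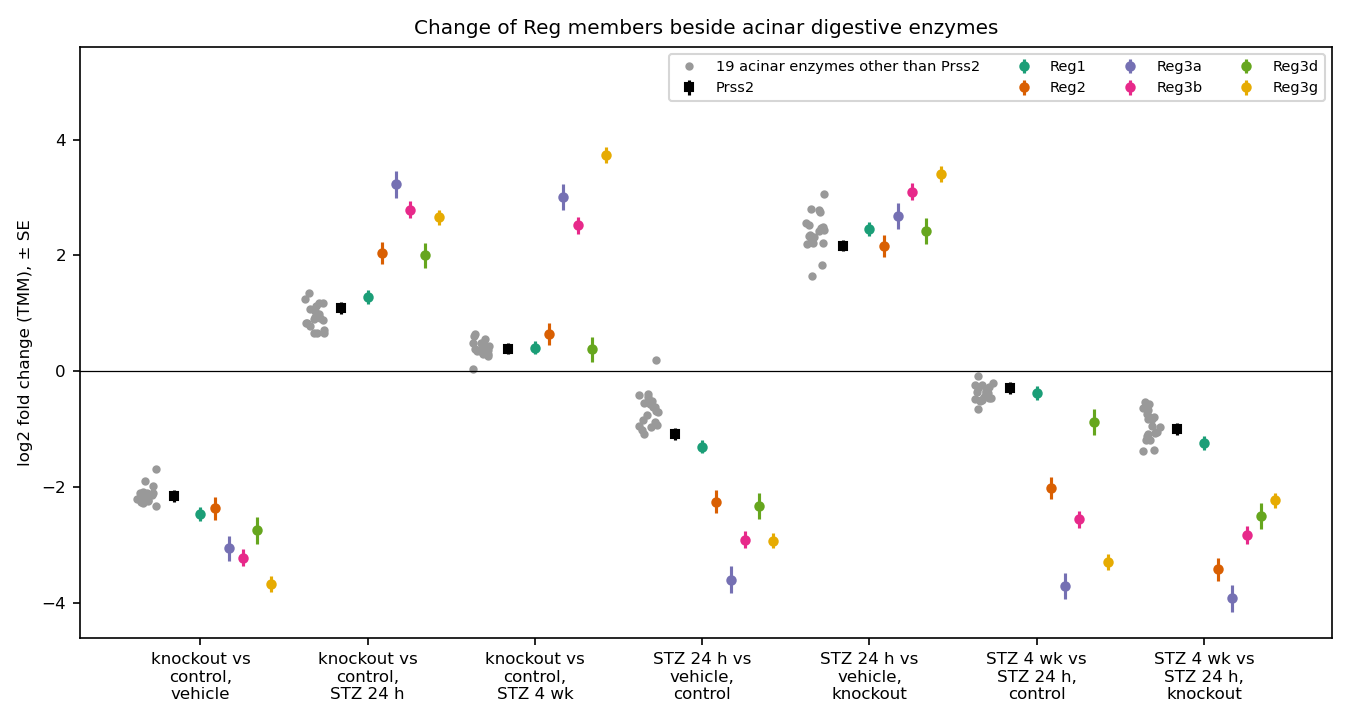
Log2 fold change with SE bars of the 6 chromosome 6 members and Prss2, beside the 19 other acinar enzymes (single points), in 7 comparisons. The 6 members lie below the enzymes in knockout against control under vehicle, Reg1 and Reg2 close to them, where the enzymes run from -2.32 to -1.69. Reg3a, Reg3b and Reg3g lie above the enzymes at 4 wk after STZ.

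At 24 h after STZ the chromosome 6 members were lower than under vehicle in control islets and higher than under vehicle in knockout islets. In control all 6 fell, by 2.46-fold for Reg1, 4.77-fold for Reg2, 5.02-fold for Reg3d, 7.51-fold for Reg3b, 7.63-fold for Reg3g and 12.1-fold for Reg3a, whereas 2.15% of all genes fell and 5.41% rose (7.56% passed). The adjusted p ran from 2.45e-06 for Reg3g to 0.000212 for Reg3d by edgeR, and Prss2 fell by 2.11-fold (adjusted p = 0.000149). Of the acinar enzymes 9 of 20 fell and 0 rose, with a median log2 value of -0.69. None was below the -1.08 of Prss2, which is in this list, and the 6 members lay below all of them. In knockout all 6 rose, from 4.49-fold for Reg2 to 10.6-fold for Reg3g (edgeR adjusted p at most 2.59e-05). Reg4, which passed the filter through the groups in which it was high, was at least 39.3-fold higher in knockout. There 30.1% of all genes and all 20 acinar enzymes rose, 26.2% of genes fell, 56.4% passed, and Prss2 was 4.50-fold higher. Liver markers rose in both genotypes, from 197 to 210 up to 4747 to 4868 CPM in control and from 35.1 to 38.6 up to 16996 to 17464 CPM in knockout. What they contribute to the Reg values was not tested.

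The difference between those responses was tested directly. For the 6 chromosome 6 members the STZ response in knockout exceeded that in control by a log2 value of 3.75 (Reg1) to 6.34 (Reg3g, SE 0.19), with adjusted p from 1.73e-07 to 9.95e-06 by edgeR. Of all genes 21.1% had a positive and 16.6% a negative difference past the threshold (37.7% in all). Prss2 differed by 3.25 (adjusted p = 1.05e-06) and the acinar enzymes by 2.65 to 3.46, below each of the 6 members. Reg4, with 0 counts in 3 of the 4 groups, had no usable value in this test.

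Between 24 h and 4 wk after STZ Reg2 and all Reg3 genes but Reg3d fell in control, and the 6 chromosome 6 members fell in knockout. In control Reg3a fell by 13.1-fold, Reg3g by 9.83-fold, Reg3b by 5.89-fold and Reg2 by 4.02-fold (edgeR adjusted p from 3.81e-05 to 0.000468), against 4.22% of all genes falling, 1.27% rising and 5.49% passing. Reg1 was at a log2 value of -0.37 (adjusted p = 0.144), Reg3d at -0.88 (adjusted p = 0.0547, and 0.0183 to 0.048 without any 1 of 4 knockout libraries) and Prss2 at -0.29 (adjusted p = 0.186). The DESeq2 Wald test called both Reg3d (-0.86, adjusted p = 0.00456) and Prss2 (-0.27, adjusted p = 0.0295) there. In knockout all 6 fell, by 15.2-fold for Reg3a, 10.7-fold for Reg2, 7.10-fold for Reg3b, 5.65-fold for Reg3d, 4.68-fold for Reg3g and 2.36-fold for Reg1 (adjusted p at most 9.14e-05), against 15.5% of genes falling, 20.2% rising and 35.7% passing. Prss2 fell by 2.00-fold there. Reg4 went the other way in both genotypes, rising at least 78.4-fold in control and 51.1-fold in knockout (log2 5.67, SE 0.35). It passed the filter through the groups in which it was high, so no p-value is given for it.

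This later change differed between genotypes for 4 members. Reg3g fell less in knockout, by a log2 difference of 1.07 (SE 0.18, adjusted p = 0.00565, edgeR), and Reg1, Reg2 and Reg3d fell more, at -0.87, -1.42 and -1.62 (adjusted p at most 0.00998). Among all genes 8.79% had a positive and 5.09% a negative difference past the threshold, 13.9% in all. Reg3a and Reg3b were at -0.21 and -0.27 and did not pass (adjusted p = 0.731 and 0.459), and Prss2 was at -0.71 (adjusted p = 0.0121, and 0.0752 without control STZ 24 h library A or 0.0602 without knockout STZ 24 h library B). Scaled to pan-endocrine genes, Reg3g was at 0.11 and did not pass (adjusted p = 0.791), while Reg3b at -1.23 (adjusted p = 0.016) did. Reg4, which passed the filter through the groups in which it was high, was at -4.92 with that scaling. The call of Reg1 ended without control STZ 24 h library B (adjusted p = 0.0561) or knockout STZ 24 h library A (adjusted p = 0.0512).

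Set against vehicle, the 4 wk libraries differed by genotype as well. In control all 6 chromosome 6 members were lower, from 3.18-fold for Reg1 and 9.23-fold for Reg3d through 19.2-fold for Reg2 and 44.2-fold for Reg3b to 75-fold for Reg3g and 159-fold for Reg3a (edgeR adjusted p at most 4.94e-05). Of all genes 4.01% were lower and 4.98% higher (8.99% passed), and Prss2 was 2.58-fold lower. In knockout Reg1 and Reg3g were higher, by 2.31- and 2.27-fold, like Prss2 at 2.25-fold, and Reg2 and Reg3a lower, by 2.39- and 2.36-fold. Reg3b (log2 0.27, adjusted p = 0.176) and Reg3d (-0.08, adjusted p = 0.824; 0.74 under pan-endocrine scaling) did not pass, in a comparison where 24.1% of genes rose, 11.7% fell and 35.9% passed. Reg2 and Reg3a did not pass under pan-endocrine scaling (-0.45, adjusted p = 0.185, and -0.42, adjusted p = 0.241), and Reg3b passed at 1.08. Reg4 was at least 59.0-fold higher in control and at least 2017-fold higher in knockout than under vehicle. The 4 wk comparisons share libraries with those above, so they are not separate evidence.

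Dividing by Prss2 removes the part of each change that the trypsinogen gene shares, and what remained differed between members. Per 1000 Prss2 counts, Reg1 ran only from 326 to 459 over the 12 libraries, with group means spanning 1.24-fold. Reg2 ran from 50.2 to 457 per 1000 Prss2 counts, with group means spanning 7.39-fold. The spans of the group means of this ratio were 3.60-fold for Reg3d, 17.1-fold for Reg3b, 29.0-fold for Reg3g and 61.3-fold for Reg3a.

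Reg3a made up 68.7 and 73.8 per 1000 Prss2 counts in control vehicle libraries, 13.6 and 11.4 at 24 h and 1.34 and 0.984 at 4 wk after STZ. In knockout it made up 33.6 and 42.5 under vehicle, 57.2 and 51.7 at 24 h and 8.59 and 5.73 at 4 wk. Control thus lost Reg3a relative to Prss2 at both steps, and knockout at the later step only. Reg3g gave 19.5 and 19.5 per 1000 Prss2 counts in control vehicle libraries, 5.85 and 5.01 at 24 h and 0.736 and 0.609 at 4 wk. Its knockout values were 6.62 and 6.99 under vehicle, 16.8 and 15.3 at 24 h and 7.62 and 6.07 at 4 wk. For Reg3g the knockout ratios at 4 wk overlapped those under vehicle, while in control they were far apart.

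**Figure D3:**
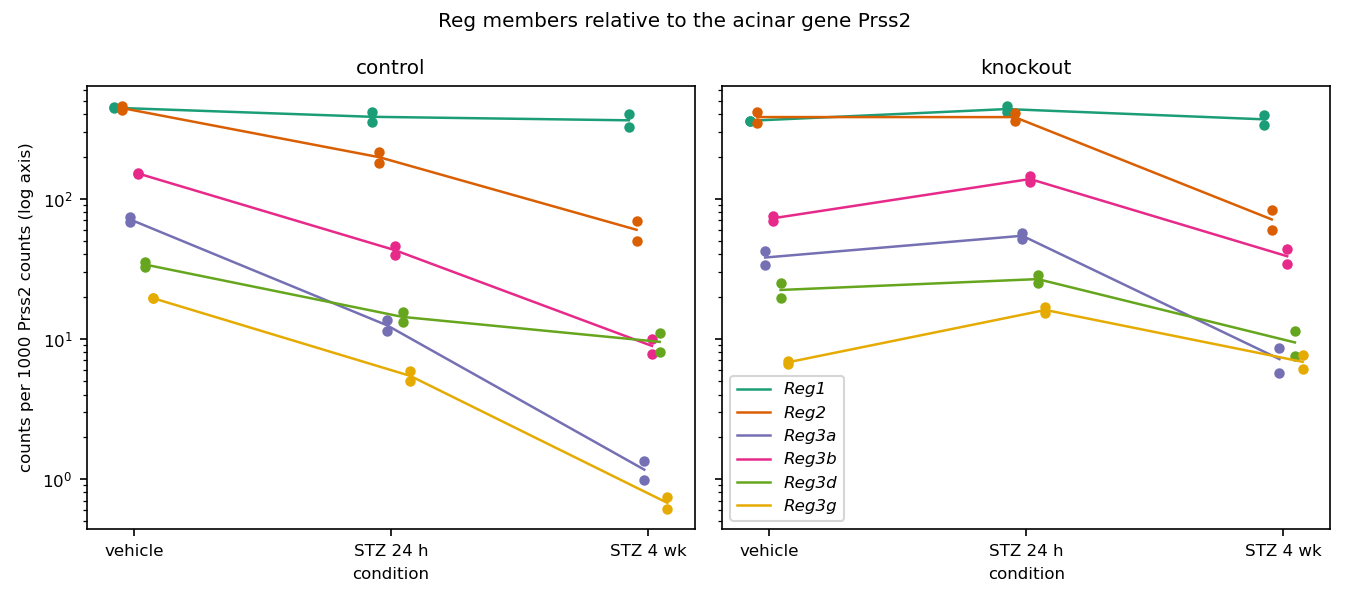
Counts of each chromosome 6 Reg member per 1000 Prss2 counts by condition, in control and knockout panels, on a log axis with libraries A and B as points. Reg1 stays between 326 and 459, and Reg3a falls in control from 68.7 and 73.8 under vehicle to 1.34 and 0.984 at 4 wk after STZ.

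The same fit scaled to Prss2 tested these ratios, with p-values adjusted over all genes. Most genes move against Prss2 wherever Prss2 itself moves, so each count is read beside that background. Under vehicle 4 members were lower in knockout relative to Prss2, Reg3g most at a log2 value of -1.52 (SE 0.16, edgeR adjusted p = 8.51e-06), then Reg3b at -1.07, Reg3a at -0.90 and Reg3d at -0.60 (adjusted p = 0.0313), whereas 2.17% of all genes were lower and 83.8% higher (86.0% passed). Reg1 and Reg2 were at -0.31 (adjusted p = 0.0815) and -0.21 (adjusted p = 0.356). The call of Reg3d ended when vehicle library A or B of control or A of knockout was left out (adjusted p up to 0.183).

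Relative to Prss2, 5 members fell at 24 h after STZ in control, from -1.17 for Reg2 and -1.24 for Reg3d to -1.82 for Reg3b, -1.84 for Reg3g and -2.51 for Reg3a (SE 0.24, edgeR adjusted p = 3.68e-05), against 0.695% of all genes lower and 80.1% higher (80.8% passed). In knockout Reg3g, at 1.24, and Reg3b, at 0.93, rose against Prss2 at that step, where 12.1% of genes rose and 73.3% fell (85.4% passed). Reg4 passed as well, but it was tested through the groups in which it was high. Reg3a was at 0.52 (adjusted p = 0.0518, and 0.022 to 0.0409 without any 1 of 5 libraries) and Reg2 at 0.00. The interaction at 24 h kept 5 members above Prss2, from 1.16 for Reg2 to 3.08 for Reg3g (adjusted p at most 0.00391), against 4.49% of genes higher and 79.7% lower (84.2% passed), and Reg1 was at 0.49 (adjusted p = 0.0548).

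Comparing genotypes after STZ, each chromosome 6 member but Reg1 was above Prss2 in knockout at 24 h, where 10.6% of genes were higher and 62.5% lower (73.1% passed). Reg3a was at 2.13, Reg3b at 1.69, Reg3g at 1.56, Reg2 at 0.95 and Reg3d at 0.90 (edgeR adjusted p = 0.00564). The call of Reg3d ended without control STZ 24 h library B. At 4 wk Reg3g at 3.35, Reg3a at 2.62 and Reg3b at 2.13 were above Prss2 (edgeR adjusted p at most 0.000155), against 14.7% of genes higher and 28.1% lower (42.8% passed). Reg1, Reg2 and Reg3d lay between -0.01 and 0.25 and did not pass. Reg4 passed at both times, at 4.17 at 4 wk, and is not counted here. Reg1 did not pass relative to Prss2 in any of the 11 comparisons in the fit of group means with all libraries. With the library letter as a replicate block it passed under vehicle (-0.31, adjusted p = 0.00131), at 24 h (0.19, adjusted p = 0.025) and in the interaction at 24 h (0.49, adjusted p = 0.000553). Without the block it passed in the interaction at 24 h when any 1 of 5 libraries was left out (adjusted p from 0.0393 to 0.0466), and at 4 wk against vehicle in control without control STZ 4 wk library A (-0.46, adjusted p = 0.0391).

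From 24 h to 4 wk, 4 members in control and 5 in knockout fell relative to Prss2. The control values were -1.72 for Reg2, -2.27 for Reg3b, -3.01 for Reg3g and -3.42 for Reg3a, where 2.83% of genes fell, 3.86% rose and 6.69% passed. The knockout values were -1.23 for Reg3g, -1.50 for Reg3d, -1.83 for Reg3b, -2.43 for Reg2 and -2.93 for Reg3a, where 5.81% of genes fell, 66.3% rose and 72.1% passed (edgeR adjusted p at most 0.00139 over both). The genotypes differed in this step for Reg3g, at 1.78 (adjusted p = 0.000462), and for Reg3d, at -0.91 (adjusted p = 0.0479), where 38.8% of genes were higher, 2.06% lower and 40.9% passed. The call of Reg3d ended when any 1 of 8 of the 12 libraries was left out. Against vehicle, 5 members in control were lower relative to Prss2 at 4 wk, where 0.959% of genes were lower and 83.5% passed. In knockout 4 of the 6 chromosome 6 members were lower, near the 61.4% of all genes (74.6% passed). Reg4, at 0 under vehicle, could not be lower and is not counted. The median log2 value of all tested genes there was -1.14. Reg3a had the lowest value in control, at -5.94, and Reg2 and Reg3a the lowest in knockout, at -2.43 and -2.41.

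Levels of different members can be compared in TPM. In control vehicle libraries Reg2 was at 21141 ± 1484 and Reg1 at 19108 ± 327 TPM (SD, n = 2), followed by Reg3b at 6588 ± 125, Reg3a at 2805 ± 221, Reg3d at 1432 ± 120 and Reg3g at 829 ± 25.6 TPM. Reg1 and Reg2 were thus nearly level, and Reg3b was the leading Reg3 gene. At 4 wk in control, Reg1 was at 8160 ± 1783, Reg2 at 1504 ± 454, Reg3d at 211 ± 62.5, Reg3b at 203 ± 49.6, Reg3a at 24.1 ± 6.94 and Reg3g at 15 ± 3.09 TPM. Reg3d and Reg3b were then closer to each other than their spread.

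The make-up of the family shifted accordingly. Reg1 gave 36.1 to 37.5% of the summed Reg TPM in control vehicle libraries, 56.6 to 56.7% at 24 h and 79.9 to 81.6% at 4 wk after STZ. In knockout its share was 37.1 to 41.2% under vehicle, 39.7 to 40.2% at 24 h and 70.9 to 73.7% at 4 wk. The Reg2 share at 4 wk was 14 to 15.5% in control and 14.4 to 16.3% in knockout, ranges that overlapped, down from 40.0 to 41.5% and 44.3 to 47.7% under vehicle. Reg3b differed at 4 wk, with 1.98 to 2.02% of the family in control and 7.53 to 7.83% in knockout. Knockout vehicle libraries, in which every chromosome 6 member was low, held 7.88 to 8.05% Reg3b, against 12.5 to 12.9% in control vehicle.

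**Figure D4:**
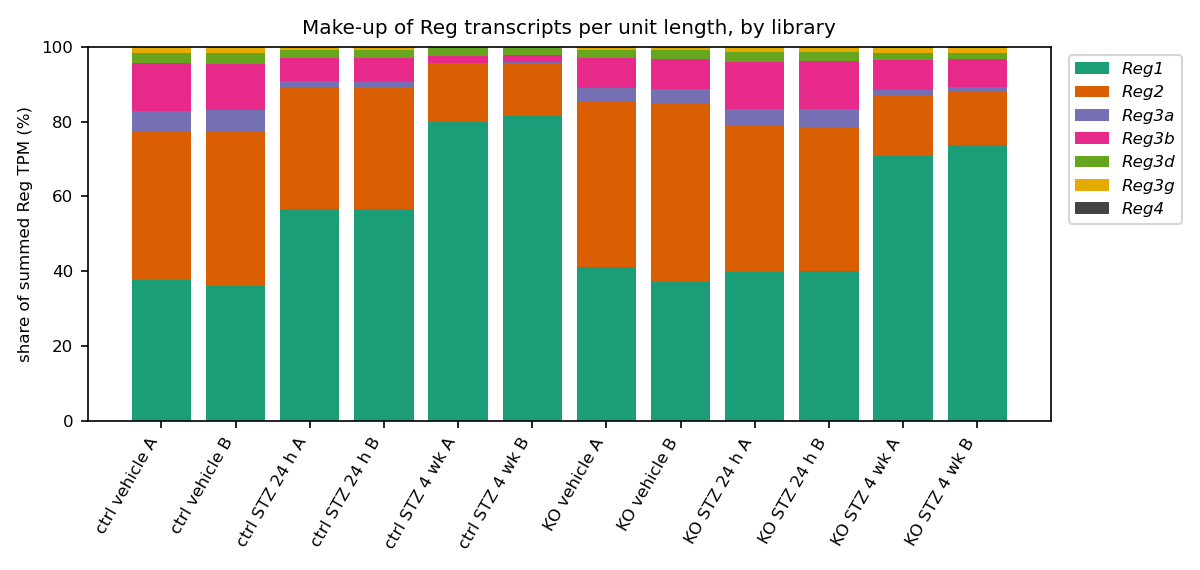
Share of each member in the summed TPM of the 7 Reg genes, in percent, as stacked bars for the 12 libraries. The Reg1 share is 36.1 to 37.5% in control vehicle and 79.9 to 81.6% in control STZ 4 wk libraries, and the Reg3b share is 7.53 to 7.83% in knockout STZ 4 wk libraries.

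Reg4 was accompanied by gut transcripts. Gip, the gene of an incretin hormone made by intestinal K cells, was the non-member gene most like Reg4 over the 12 libraries (Pearson r = 0.9958 of log2 CPM among 12549 candidates, a description of these libraries). Like Reg4, it was listed at 0 in both vehicle groups and in control STZ 24 h, and it reached 0.534 and 0.684 CPM in control at 4 wk, 0.525 and 0.497 CPM in knockout at 24 h, and 19.4 and 22.6 CPM in knockout at 4 wk. Apol10a and Guca2b, the gene of the gut peptide uroguanylin, came next (r = 0.9907 and 0.989). All 3 were at or near 0 in the groups without Reg4 counts, and those 6 libraries enter the correlation.

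The 14 intestinal markers summed to 105 to 106 CPM in control vehicle, 143 to 145 at 24 h and 320 to 324 at 4 wk after STZ. In knockout they summed to 79.9 to 101 CPM under vehicle, 1091 to 1107 at 24 h and 10910 to 10942 at 4 wk. All 14 rose in knockout against control at 4 wk, where 19.9% of all tested genes were higher and 7.89% lower. Of these markers 4 to 5 in control vehicle and 8 in knockout vehicle libraries were at 0. The most abundant were Fabp2, of enterocyte fat transport, at 3049 and 2068 CPM, and the sucrase gene Sis at 2990 and 2034 CPM in knockout STZ 4 wk libraries. The 7 Paneth-cell markers summed to 201 to 232 CPM there and to 0.567 to 0.692 CPM in control STZ 4 wk. Gut epithelium also makes Reg3b and Reg3g, which were higher in knockout in that comparison. From 24 h to 4 wk in knockout the summed markers went up, and Reg3b, Reg3g and Prss2 fell. The part of gut transcripts in the Reg4, Reg3b and Reg3g values was not tested in either comparison.

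**Figure D5:**
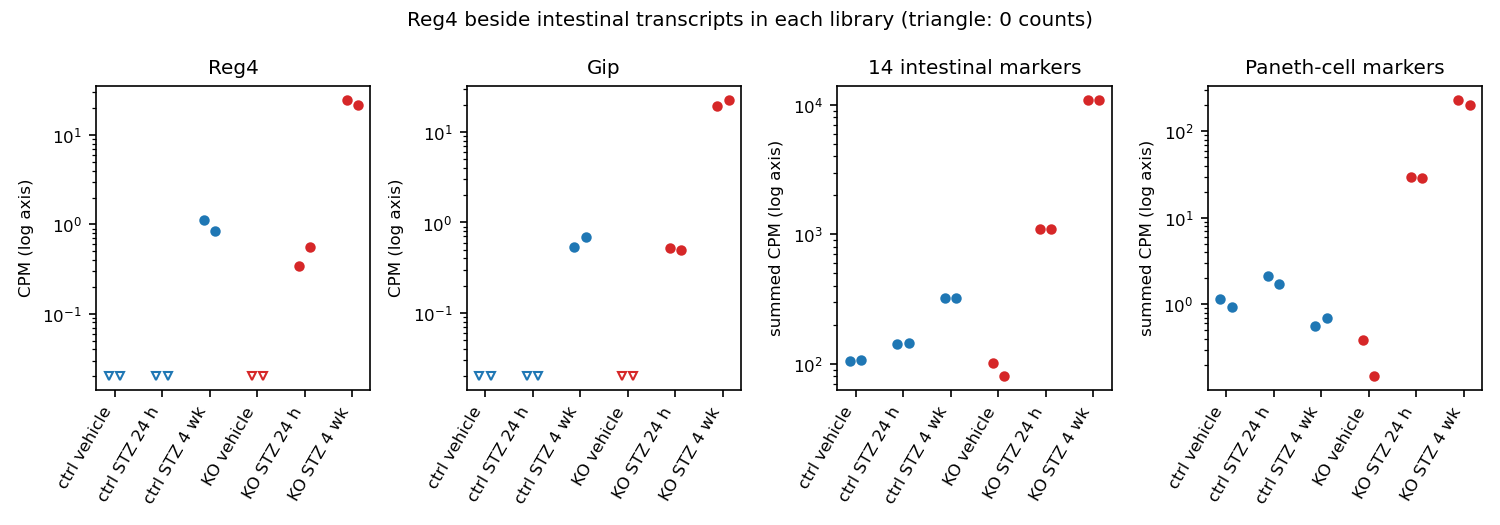
CPM on a log axis of Reg4, Gip, the sum of 14 intestinal markers and the sum of 7 Paneth-cell markers in the 12 libraries, A and B as points, with triangles for 0 counts. All 4 are highest in knockout STZ 4 wk libraries, where Reg4 is at 24.8 and 21.6 CPM and the intestinal sum at 10910 to 10942 CPM.

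Most like Reg1 among the non-members were the acinar genes Cpb1 (r = 0.9936), a carboxypeptidase, Pnliprp2 (0.9933), a lipase-related protein, and Erp27 (0.9931), a chaperone of the endoplasmic reticulum; Prss2 followed at 0.9916. Cpb1 was at 43983 and 45730 CPM in control vehicle and 8537 and 10469 CPM in knockout vehicle libraries. For Reg2 (0.9504), Reg3a (0.9737), Reg3b (0.981) and Reg3g (0.9687) the leading non-member was Stc1, which encodes the secreted glycoprotein stanniocalcin-1. Stc1 was at 9.33 and 9.51 CPM in control vehicle, 5.93 and 5.37 CPM at 24 h and 2.93 and 2.58 CPM at 4 wk after STZ. Its knockout values were 4.42 and 5.25 CPM under vehicle, 9.67 and 8.74 CPM at 24 h and 5.66 and 4.09 CPM at 4 wk. Eif2b1 and Wdr5 stood next for Reg2 (0.9394 and 0.9381), Sgce and Slc38a2 for Reg3a (0.9311 and 0.9194), Npy1r and Kit for Reg3b (0.9547 and 0.9474), and Kit and Rab31 for Reg3g (0.9634 and 0.9428), while Reg3d was most like Ccdc141, Eif2b1 and Wdr5 (0.9736, 0.9734 and 0.972). Within the family, Reg3b and Reg3g were the most alike (0.9873). These correlations run over 12 libraries in 6 groups and share their library scaling.

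Upstream of the Reg3 genes in gut and pancreas stand cytokines of the interleukin 6 and interleukin 22 type, their receptors, and STAT3. Of 8 such ligand genes tested, 1 rose and 0 fell in knockout under vehicle, 4 rose and 1 fell at 24 h, and 2 rose and 0 fell at 4 wk after STZ. For these and the following lists, the shares of all tested genes that were higher and lower in knockout were 1.96 and 7.68% under vehicle, 23.7 and 19.4% at 24 h, and 19.9 and 7.89% at 4 wk, with a median gene of 0, 0 and 0.01, and 2 of 8 ligand genes at 4 wk is near that background. Il22 was at 1.14 and 1.75 CPM in knockout vehicle and at 0.0653 and 0 CPM in control vehicle libraries (log2 5.40, SE 1.10, edgeR adjusted p = 0.0192), a group in which the Reg3 genes were lower. At 4 wk Il22 was at 1.17 and 0.844 CPM in knockout and listed at 0 in both control libraries. At 24 h Lif rose by 2.34 (adjusted p = 0.000868) and Clcf1 by 2.93 (adjusted p = 0.000921), and Il10 was at 0.638 and 0.573 CPM in knockout and listed at 0 in control.

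Of 8 receptor genes, 2 fell under vehicle, Il22ra1 by 1.99 and Osmr by 1.07 on the log2 scale (edgeR adjusted p = 1.39e-05 and 0.00261). Il22ra1, the specific chain of the interleukin 22 receptor, was at 23.8 and 23.9 CPM in control vehicle, 12.2 and 14 CPM at 24 h and 11 and 11.5 CPM at 4 wk. In knockout it was at 6.28 and 5.75 CPM under vehicle, 34.9 and 35.9 CPM at 24 h and 56.2 and 65.5 CPM at 4 wk. Up to 24 h Il22ra1 and the Reg3 genes moved in the same directions. From 24 h to 4 wk in knockout Il22ra1 rose (0.78, edgeR adjusted p = 0.000959) while the Reg3 genes fell. The acinar enzymes were lower in knockout under vehicle as well, at a median log2 value of -2.14. Intestinal markers in knockout went from 1091 to 1107 CPM at 24 h up to 10910 to 10942 CPM at 4 wk. Whether Il22ra1 or any gene of this pathway acted on the Reg3 genes here was not tested. After STZ 5 of 8 receptor genes were higher and 1 lower in knockout at 24 h (median log2 1.27; 23.7% of all genes higher), those of smallest adjusted p being Il6st at 1.42, Osmr at 2.19 and Il22ra1 at 1.43 (adjusted p at most 2.52e-05), and 4 higher and 0 lower at 4 wk (median 0.65; 19.9% of all genes higher).

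Among 7 kinase and transcription factor genes, 2 fell under vehicle, Cebpd (-1.41, edgeR adjusted p = 0.00933) and Stat3 itself (-0.59, adjusted p = 0.0496). Under total-count scaling 2 of the 7 were higher and 1 lower. At 24 h after STZ 4 were higher in knockout (23.7% of all genes were), among them Jak1 at 0.94 and Jak2 at 0.67, and Stat3 was at 0.35 (adjusted p = 0.0999). At 4 wk 2 of 7 were higher, near the 19.9% of all genes, among them Jak2 at 1.59.

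Other genes known to be raised through STAT3, of which 10 were tested, fell in 6 cases under vehicle (median log2 -2.09), rose in 9 at 24 h (1.97) and rose in 5 at 4 wk (0.96) in knockout against control, beside 7.68% of all genes lower, 23.7% higher and 19.9% higher. Socs3, the feedback inhibitor of the pathway, was at 12.9 and 14.4 CPM in control vehicle against 6.33 and 4.11 CPM in knockout vehicle (log2 -1.38, edgeR adjusted p = 0.0248), and at 22.9 and 23.4 CPM in knockout STZ 24 h against 6.68 and 8.45 CPM in control (1.61, adjusted p = 0.00315). In control 24 h after STZ 3 of the 10 rose and 0 fell, beside 5.41% of all genes higher and 2.15% lower, and the Reg3 genes fell. Those 3 were the acute-phase genes Fgb, Fgg and Hp, at 4.63, 4.74 and 5.38, which liver also makes, and the 10 liver markers rose with them, from 197 to 210 up to 4747 to 4868 CPM in sum. Liver markers also differed between genotypes, at 35.1 to 38.6 CPM in knockout and 197 to 210 CPM in control under vehicle. At 24 h after STZ they were at 16996 to 17464 CPM in knockout and 4747 to 4868 CPM in control. The part of liver transcripts in the values of this list was not tested.

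Acinar injury genes, 15 that rise in pancreatitis or in acinar cells turning duct-like, fell in 11 cases under vehicle (median log2 -1.47), rose in 12 and fell in 1 at 24 h (1.61), and rose in 8 at 4 wk (1.15) in knockout against control, beside the same shares of all genes. In control 24 h after STZ, where the 6 chromosome 6 members fell, 3 of the 15 rose and 1 fell (median 0.04). Of all genes 5.41% were higher and 2.15% lower there. Between genotypes at 24 h after STZ, liver markers were at 16996 to 17464 CPM in knockout and 4747 to 4868 CPM in control. Macrophage markers were at 1597 to 1625 CPM in knockout and 193 to 198 CPM in control. Under vehicle the acinar enzymes had a median log2 fold change of -2.14. The part of these cell types in the values of the injury list was not tested. Lcn2, which encodes lipocalin 2, was at 5.50 and 4.37 CPM in control vehicle, 2.71 and 2.38 CPM at 24 h and 0.173 and 0.204 CPM at 4 wk after STZ. Its knockout levels were 0.368 and 0.278 CPM under vehicle, 16.5 and 19 CPM at 24 h and 0.973 and 1.59 CPM at 4 wk. Each genotype difference of Lcn2 passed, at -3.93, 2.80 and 2.76 (edgeR adjusted p at most 0.000168). Tff2, a trefoil peptide of stomach and pancreas, fell by 2.24 under vehicle (adjusted p = 4.77e-05), and Krt19, a duct keratin, was at 3.92 at 4 wk (adjusted p = 0.00011), where ductal markers summed to 263 to 265 CPM in knockout and 163 to 200 CPM in control and intestinal markers to 10910 to 10942 against 320 to 324 CPM; their part in the Krt19 value was not tested.

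Of 3 genes proposed to encode receptors of Reg proteins, 1 fell under vehicle, 2 rose at 24 h and 1 fell at 4 wk in knockout against control; under total-count scaling 1 rose under vehicle and under pan-endocrine scaling 2 rose at 4 wk. Extl3, for a glycosyltransferase proposed as the Reg receptor, was at 79.6 and 74.2 CPM in control vehicle and 49.1 and 36.1 CPM in knockout vehicle (log2 -0.85, SE 0.22, edgeR adjusted p = 0.0421). It was at 0.47 in knockout against control at 24 h (adjusted p = 0.11) and at 0.00 at 4 wk (adjusted p = 0.997). Egfr and Cd44 rose in knockout at 24 h, by 1.36 and 0.88 (adjusted p = 2.57e-05 and 0.00572), and Egfr fell by 0.47 at 4 wk (adjusted p = 0.0134).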

How the data were processed

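Gene values are expected counts, estimated from coverage and unscaled, as the authors deposited them; each library also has a transcript file with coverage, FPKM and TPM. StringTie 1.3.6 made these from an mm10 annotation with a strand option, per the file headers. The labels' protocols name stranded mRNA libraries and paired reads of 100 bases; no aligner is named in them. A count is coverage times length over 75, rounded up, and so is proportional to, but not equal to, the number of reads.

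Tests used edgeR 4.0.16 in R 4.3.3: TMM scaling (factors 0.83 to 1.21), filterByExpr, 1 fit of 6 group means over 12 libraries with 6 residual degrees of freedom and the robust quasi-likelihood F test, two-sided, with Benjamini-Hochberg adjustment over 17411 genes per comparison and a threshold of 0.05. A second fit with libraries scaled to Prss2 tested each gene's difference from Prss2. CPM and log2 fold changes were computed from the counts the authors deposited, and the SE divides the log2 fold change by the square root of F. Where a group is at 0, the fold given is against a floor of 3 counts in the whole group, and "at least" refers to this floor. Because a count is not a number of reads, the floor does not bound the counting error, nor the variation between libraries. Scripts were tested on simulated data. Alternatives were other scalings (DESeq2 1.42.0 size factors, total counts, pan-endocrine genes, acinar enzymes), no filter, the DESeq2 Wald test, a block by library letter, and each library left out.

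The members and gene lists were chosen with earlier results of these data known. Genes named are the members and Prss2, for each member the 3 other tested genes with a mean of at least 2 CPM and the highest Pearson correlation, and from each list up to 3 members of smallest adjusted p, or the most abundant marker; Socs3 was named in addition, after its values were seen. The values of 1 listed gene are not reported here. RefSeq promoters matched 7 of 7 members by symbol. Motifs were searched with Python 3.11.15. Libraries A and B of a group differed by more than counting error, so none was merged.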

Additional observations from a re-analysis of the deposited data

Results flagged for a closer look

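The response to STZ at 24 h differed between knockout and control islets for each chromosome 6 member, by the test of the difference itself: 3.75 for Reg1 (edgeR adjusted p = 1.24e-06), 4.42 for Reg2 (adjusted p = 7.02e-06), 6.28 for Reg3a (adjusted p = 2.31e-06), 6.01 for Reg3b (adjusted p = 4.35e-07), 4.75 for Reg3d (adjusted p = 9.95e-06) and 6.34 for Reg3g (adjusted p = 1.73e-07), all on the log2 scale. Both libraries of each group lay on the side of this difference. The change from 24 h to 4 wk after STZ also differed between genotypes for Reg1 (-0.87, adjusted p = 0.00998), Reg2 (-1.42, adjusted p = 0.00957), Reg3d (-1.62, adjusted p = 0.00986) and Reg3g (1.07, adjusted p = 0.00565), negative values meaning a larger fall in knockout. With 2 libraries per group, no single library could be tested as standing apart from its group.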

How the results depend on the processing

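The counts of members past the threshold under TMM scaling stayed within 1.5 times their main value under each alternative run, and no member or Prss2 changed the sign of a called value. Leaving out 1 library at a time ended 22 calls, made 5 and left 1029 single results as they were under TMM scaling, and ended 12, made 13 and left 899 relative to Prss2. Relative to Prss2, the number of members called under vehicle was 2, not 4, when libraries were scaled to the acinar enzymes other than Prss2 (Reg3a -0.87, adjusted p = 0.0639; Reg3d -0.57, adjusted p = 0.21), and with that scaling Reg3b in knockout at 24 h (0.65, adjusted p = 0.0871) and Reg2 in control from 24 h to 4 wk (-1.57, adjusted p = 0.0677) did not pass. For the genotype difference of the later change relative to Prss2, 2 members were called, against 1 with the acinar enzyme scaling, 1 without the filter, 1 to 3 with a library left out and 6 (3 higher, 3 lower) with the replicate block. The letters A and B are not stated to pair libraries. The gaps between A and B correlated between genotypes across genes by 0.12 under vehicle, 0.05 at 24 h and 0.48 at 4 wk. At 4 wk library A was above library B for every member in both genotypes, and the main fit does not model such a shared gap. With the replicate block, Reg3d at 4 wk passed at 0.36 (edgeR adjusted p = 0.0105). The later change of Reg4, which passed the filter through the groups in which it was high, differed by -4.15. Relative to Prss2, 9 more single results passed with the block, among them Reg1 in the interaction at 24 h (0.49, adjusted p = 0.000553). Scaling sets the direction of the average gene: total-count scaling moved the median gene by 0.53 for knockout against control under vehicle, -0.24 at 24 h and -0.09 at 4 wk, and pan-endocrine scaling by -0.4, 1.72 and 0.75. Of the genes called, 20.4, 55.0 and 71.6% were higher in these comparisons by TMM, 86.3, 39.0 and 61.1% by total counts and 2.68, 99.2 and 99.3% by pan-endocrine genes. For STZ at 24 h the share was 71.5% in control and 53.5% in knockout by TMM, 91.4 and 35.1% by total counts and 61.3 and 99.4% by pan-endocrine genes. With total counts, the calls at 4 wk of Reg1 (0.32, adjusted p = 0.0823), Reg2 (0.54, adjusted p = 0.0642) and Prss2 (0.29, adjusted p = 0.0523) ended. Depth did not limit the chromosome 6 members, but Reg4 at 24 h in knockout rests on 33 and 59 counts.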
